A study of Mus musculus with 37 samples.

Results

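Ciliary neurotrophic factor (Cntf) and 9 genes through which it signals were followed in RNA sequencing of cortical astrocytes isolated 4 months after surgery. The 10 genes, of 21975 in each table, were taken by symbol. They are the ligands Cntf and Lif, the receptor subunits Cntfr, Lifr, Il6st, Il6ra and Osmr, the kinase Jak2, the transcription factor Stat3 and the inhibitor Socs3. The set was chosen by measured values, namely ipsilateral Cntf in CCI-injured against sham mice, so for that contrast, and for the hemispheres of injured mice, values are described without a test.

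Controlled cortical impact (CCI) is a focal injury from a piston driven onto the exposed cortex, here over 1 hemisphere. Sham mice had the craniectomy and the EEG electrodes but no impact. Injured mice with recorded seizures are PTE+ (post-traumatic epilepsy), and those without are PTE-. The ipsilateral libraries came from 5 sham, 10 PTE- and 4 PTE+ mice, and the contralateral ones from 5 sham, 9 PTE- and 4 PTE+ mice. All mice were wild type males, whose strain is CD1 in the study's methods and CD31 in the sample labels. Cells were pulled from dissociated cortex with magnetic beads against the astrocyte antigen ACSA-2, so each library is a bulk of enriched cells from 1 hemisphere of 1 mouse. Both hemispheres were present for 17 of 20 mice (5 sham, 9 PTE- and 3 PTE+). In such bulk samples, fewer cells of a type and less RNA per cell cannot be told apart.

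CNTF belongs to the interleukin-6 family of cytokines. It binds the anchored receptor CNTFR, which brings together gp130 (the product of Il6st) and LIFR, while LIF uses gp130 with LIFR alone, and OSMR and the interleukin-6 receptor serve other ligands of the family. JAK kinases bound to these chains phosphorylate STAT3, which enters the nucleus and drives genes that include Socs3, whose product shuts the receptor down. In the brain CNTF is known as a product of astrocytes, in the periphery of Schwann cells, and STAT3 in astrocytes is known for its place in reactive gliosis and scar formation.

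The sequences upstream of Cntf and of Socs3 are shown because Socs3 is a known STAT3 target and Cntf is the gene by which the set was chosen. Both were taken from RefSeq promoters on GRCm38.p6 and are written 5′ to 3′ on the strand of the gene, the minus strand in both cases. Capitals mark the letters TTCNNNGAA, a spacing found in many STAT binding sites, which reads the same on both strands. The Cntf stretch covers chr19:12765633-12765882, bases -250 to -1 before the start of the gene, and lies in an intron of the longer transcript Zfp91-203. The Socs3 stretch covers chr11:117969467-117969616, bases -250 to -101 before the RefSeq start. It overlaps no annotated exon but lies in an intron of the transcript Socs3-202, and holds 1 match whose first base is at -154.
Cntf: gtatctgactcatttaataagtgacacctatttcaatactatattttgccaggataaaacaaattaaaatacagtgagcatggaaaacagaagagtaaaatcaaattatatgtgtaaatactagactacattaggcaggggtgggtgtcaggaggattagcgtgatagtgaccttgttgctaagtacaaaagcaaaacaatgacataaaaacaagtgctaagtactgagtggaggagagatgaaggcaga
Socs3: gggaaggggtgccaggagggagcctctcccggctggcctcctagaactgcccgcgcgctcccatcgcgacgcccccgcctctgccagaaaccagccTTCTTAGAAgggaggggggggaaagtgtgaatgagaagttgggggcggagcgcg
All 10 genes had a promoter in the table, 16 in all over 250 bases, and Socs3 held the only match. The letters occur in 2306 of 32851 promoter windows of that length (7.02%). A match is a run of letters, not a shown site, and its absence says only that the window does not hold them.

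Values are in TPM (transcripts scaled to a fixed total per library), which keep no record of sequencing depth, so counting error is unknown. The libraries held between 15599 and 18534 genes above 0 TPM, except ipsilateral PTE- mouse 9_14 with 10727. In that library Lif, Osmr and Socs3 were listed at 0, and Lifr and Stat3 were the highest of their group. The 10 astrocyte markers summed to between 13789.7 and 20531.0 TPM in each library, against 8.48 to 76.9 TPM for 6 Schwann cell markers and 30.2 to 497 TPM for 6 neuron markers. Oligodendrocyte markers were more abundant (8 genes, 523 to 4473 TPM), as were endothelial markers (6 genes, 259 to 1939 TPM). Microglia (8 genes, 113 to 522 TPM), mural (5 genes, 135 to 517 TPM) and ependymal markers (4 genes, 24.8 to 710 TPM) also reached above the highest neuron sum. Mouse names begin with 8 or 9, which the labels do not explain, and several of the genes followed that prefix.

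**Figure D1:**
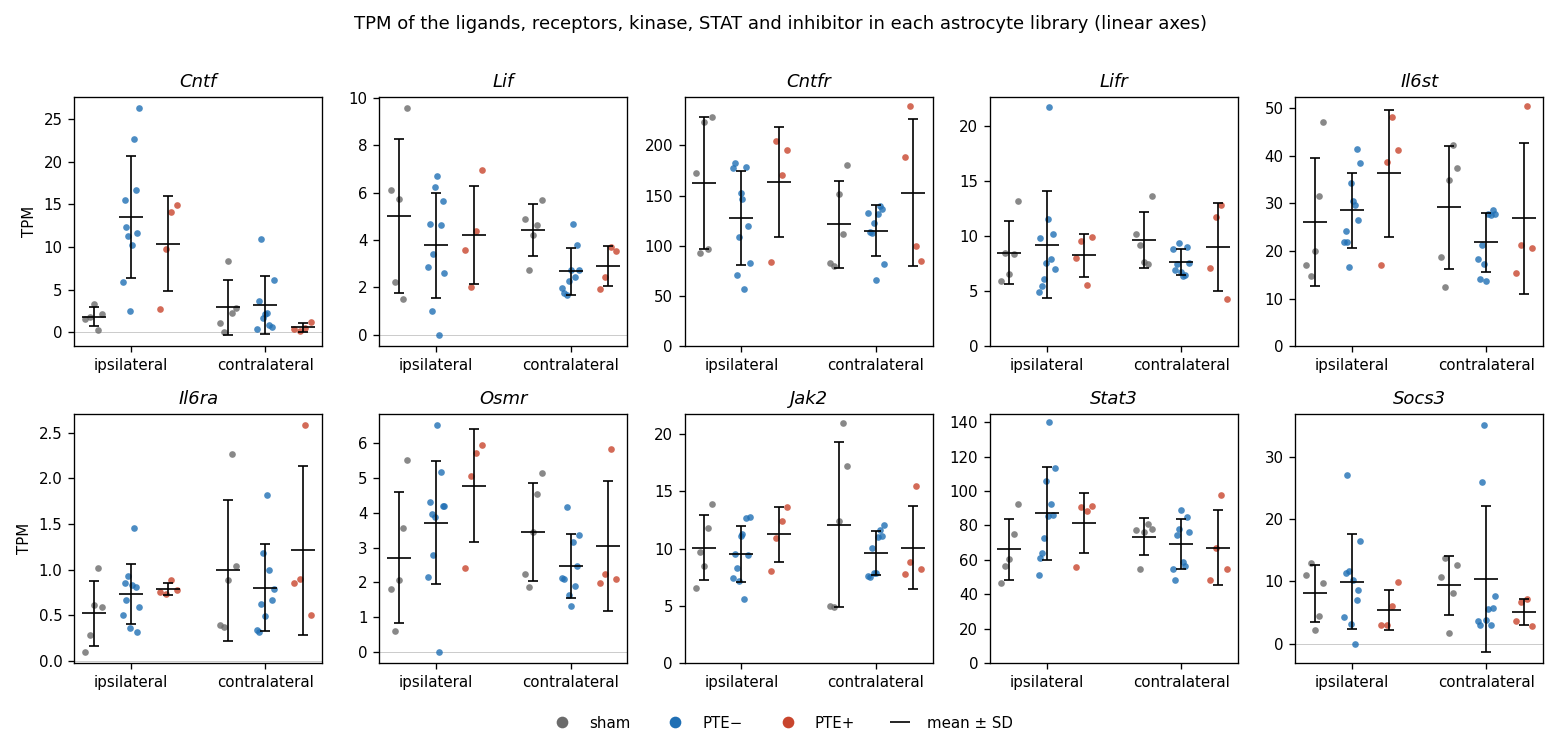
TPM (linear axes) of the 10 genes in each library, by hemisphere and group (grey sham, blue PTE-, red PTE+), with the group mean ± SD in black. Cntf is the gene whose ipsilateral injured libraries lie mostly above sham, and the groups of the other genes overlap widely.

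Cntf (ENSMUSG00000079415) lies on chromosome 19 from 12763660 to 12765632 (GRCm38, minus strand). It was low in the ipsilateral sham astrocytes, at 0.21, 1.52, 1.83, 2.14 and 3.34 TPM. In the 10 ipsilateral PTE- libraries it ranged from 2.45 to 26.3 TPM with a median of 12.04, and in the 4 PTE+ libraries it measured 2.76, 9.73, 14.1 and 14.9 TPM. Of the 14 injured libraries 12 were above every sham library, and PTE- mouse 9_12 and PTE+ mouse 8_10 lay within the sham range. The mean was 12.6 ± 6.71 TPM (SD, n = 14) after injury and 1.81 ± 1.13 TPM (SD, n = 5) in sham. The difference was 2.19 (SE 0.43) on the scale of log2(TPM + 1), and 2.11 without mouse 9_14. Mice of either name prefix showed it, at 2.76 to 15.5 TPM in injured against 1.52 and 1.83 TPM in sham mice for prefix 8, and at 2.45 to 26.3 against 0.21, 2.14 and 3.34 TPM for prefix 9.

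Contralateral Cntf differed between injured and sham mice by less than the spread of the libraries. The sham libraries measured 0, 1.07, 2.30, 2.83 and 8.38 TPM, and the 13 injured libraries ranged from 0.16 to 10.99 with a median of 1.24 TPM. Injured minus sham was -0.22 (SE 0.56, exact permutation p = 0.694, two-sided over 8568 splits, n = 13 and 5). Without sham mouse 9_9 it turned to 0.19. The 4 PTE+ libraries, at 0.16, 0.34, 0.47 and 1.24 TPM, lay at the low end, whereas the 9 PTE- libraries spanned 0.36 to 10.99 TPM with a median of 2.12. All 4 PTE+ libraries were below that median, and the groups overlapped. The difference was -1.12 (SE 0.54, exact permutation p = 0.0601 over 715 splits, n = 4 and 9). It fell under 0.05 with a pseudocount of 0.1 (exact p = 0.0420), with centring of the libraries on their medians (exact p = 0.0462) and without PTE+ mouse 9_18 (exact p = 0.0455), and rose to between 0.105 and 0.145 without any other PTE+ mouse. With the TPM of Cntf and of its overlapping neighbour Zfp91 summed it was -0.14 (exact p = 0.573). Contralateral Cntf had a mean under 5 TPM in every group and did not enter the fit across genes.

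On the injured side PTE+ and PTE- mice overlapped in Cntf. PTE+ minus PTE- was -0.35 (SE 0.53, exact permutation p = 0.537 over 1001 splits, n = 4 and 10), and without PTE+ mouse 8_10, the lowest of its group, it was 0.12. Ranked by mean TPM, the order was ipsilateral PTE- (13.5), ipsilateral PTE+ (10.4), contralateral PTE- (3.17), contralateral sham (2.92), ipsilateral sham (1.81) and contralateral PTE+ (0.552). Each group in that order overlapped the next in its range.

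Within mice the hemispheres differed in the same direction in every injured animal. Ipsilateral Cntf exceeded contralateral Cntf in 12 of 12 injured mice, by 0.15 to 3.25 with a mean of 1.98 on the log2 scale. In PTE- mouse 9_15 it was 16.7 against 0.85 TPM, and in PTE+ mouse 9_17 it was 9.73 against 0.47 TPM. The smallest gaps were those of PTE- mouse 9_12, with 2.45 against 2.12 TPM, and of PTE- mouse 8_13, with 12.4 against 10.99 TPM. In sham mice 2 of 5 were higher on the ipsilateral side, with a mean of -0.21 (exact sign-flip p = 0.812, where 0.0625 is the smallest that 5 mice allow). The ipsilateral sham values were part of the choice of Cntf, so nothing is read from this p. The gap averaged 2.37 in 3 PTE+ and 1.85 in 9 PTE- mice, which differed by 0.52 (exact permutation p = 0.473 over 220 splits).

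**Figure D2:**
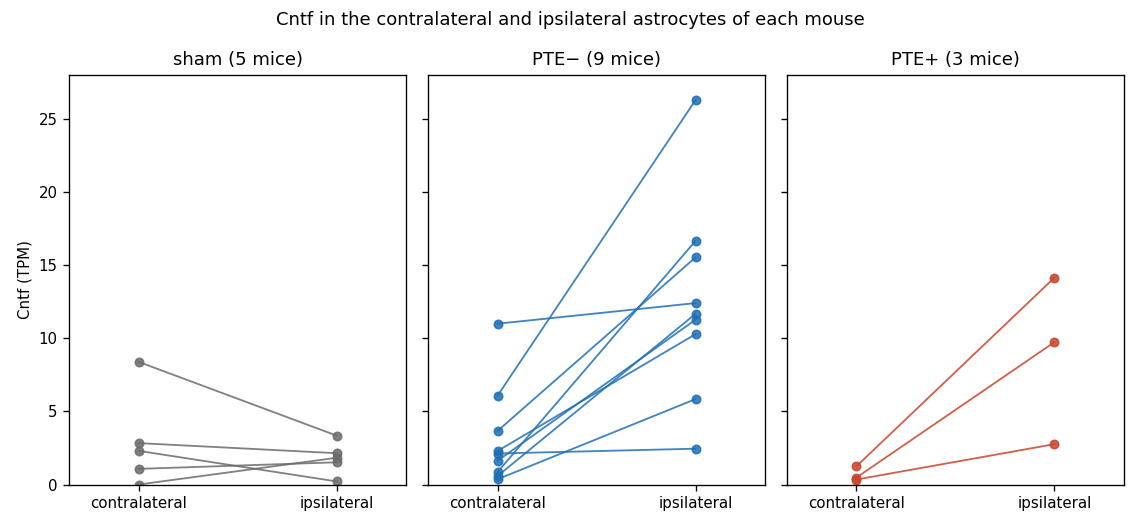
Cntf in TPM in the contralateral and ipsilateral astrocytes of each mouse, with a line per mouse, for 5 sham, 9 PTE- and 3 PTE+ mice. The lines rise from contralateral to ipsilateral in all 12 injured mice and in 2 of 5 sham mice.

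Cntf shares sequence with its neighbour. Zfp91, which encodes a zinc finger protein, overlaps it on the same strand (chromosome 19, 12763660 to 12796126), and its transcript Zfp91-203 reads through into the Cntf exons. Of 1073 exonic bases of Cntf, 847 (78.9%) also belong to exons of Zfp91, which leaves 226 bases, from 12765407 to 12765632, that are Cntf alone. RSEM divides reads from shared bases between the genes by estimate, so the split of the pair is uncertain. Zfp91 itself measured 6.27, 6.62, 6.73, 8.04 and 8.57 TPM in ipsilateral sham libraries and 1.25 to 9.94 TPM, with a median of 7.25, in injured ones. The sum of both genes was 6.48 to 10.7 TPM in ipsilateral sham and 9.05 to 30.8 TPM in injured libraries. It was above every sham library in 12 of 14 injured libraries, with a difference of 0.98 (log2), compared with 2.19 for Cntf alone, and contralaterally the sum differed by -0.18. No other gene of the files within 100 kb overlapped Cntf, and the next expressed one, Lpxn, lies on the other strand with a mean of 1.89 TPM over all libraries.

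**Figure D3:**
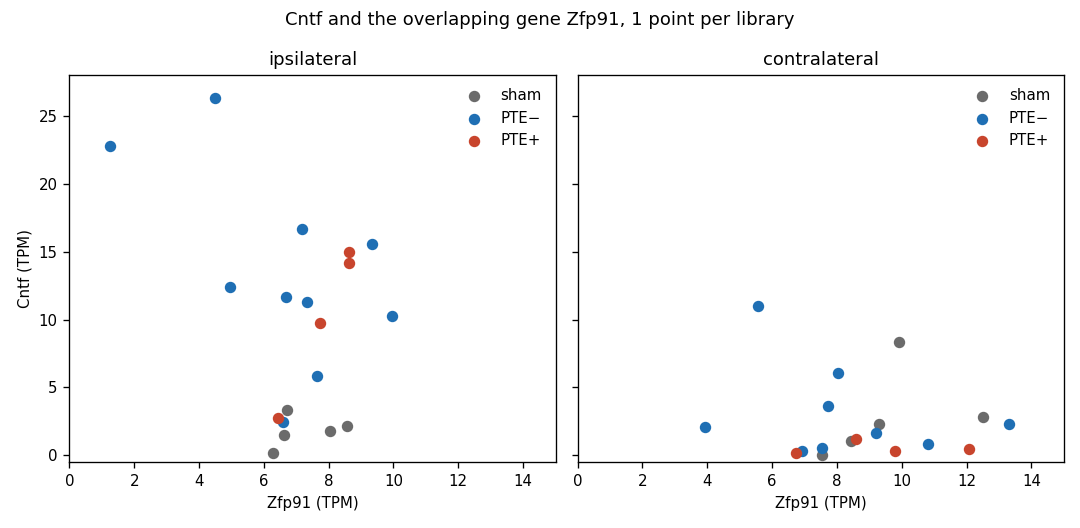
TPM of Cntf against TPM of Zfp91, a point per library, by hemisphere (grey sham, blue PTE-, red PTE+). Ipsilateral injured libraries spread upward along Cntf to 26.3 TPM while Zfp91 stays between 1.25 and 9.94 TPM.

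Lif (ENSMUSG00000034394; chromosome 11, 4257557 to 4272514), which encodes leukemia inhibitory factor, was lower in injured than in sham mice contralaterally. The sham libraries measured 2.74, 4.19, 4.65, 4.89 and 5.67 TPM. The 9 PTE- libraries ranged from 1.69 to 4.69 TPM with a median of 2.45, and the 4 PTE+ libraries measured 1.95, 2.46, 3.53 and 3.69 TPM. Of these 12 of 13 injured libraries were below the sham median, although the ranges overlapped. The mean fell from 4.43 ± 1.09 TPM (SD, n = 5) to 2.75 ± 0.914 TPM (SD, n = 13). The difference was -0.55 (SE 0.17, exact permutation p = 0.00724 over 8568 splits, n = 13 and 5). This was 1 of 30 such tests over the 10 genes, and the only one under 0.05. Its exact p is not corrected for the 30 tests.

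The lower Lif of injured mice held within each prefix. For prefix 8 the sham libraries, 2.74 and 4.89 TPM, were above all 6 injured ones, at 1.69 to 2.46 TPM. For prefix 9 the sham libraries measured 4.19, 4.65 and 5.67 TPM and the 7 injured ones 2.45 to 4.69 TPM. It was also lower with quantile normalization (-0.38, exact p = 0.0145) and median centring (-0.45, exact p = 0.00490). With permutation inside the prefixes the difference was -0.52 (exact p = 0.00119). Across the alternatives without 1 sham mouse it stayed between -0.67 and -0.47, with exact p between 0.00168 and 0.0265. Lif was under the filter of 5 TPM here, so it was not among the genes tested by limma, and with no filter its limma p was 0.00823 and 0.956 after Benjamini-Hochberg adjustment over all genes. The decrease did not pass a correction over the transcriptome.

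Elsewhere Lif was more variable. On the ipsilateral side sham libraries measured 1.51, 2.24, 5.71, 6.11 and 9.54 TPM, and the injured ones 0 to 6.93 TPM with a median of 3.97, all within or under the sham range. PTE+ minus PTE- was 0.25 (SE 0.50, exact permutation p = 0.658) on the ipsilateral and 0.10 (SE 0.21, exact permutation p = 0.634) on the contralateral side. Without mouse 9_14, where Lif was listed at 0, the ipsilateral value was 0.02.

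**Figure D4:**
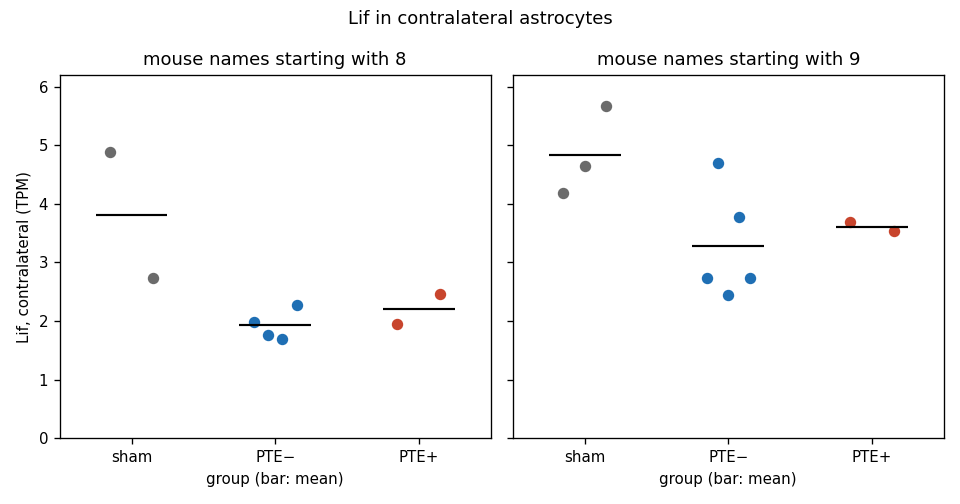
Lif in TPM in contralateral astrocytes, a point per library and a bar for the mean of each group, separately for mice whose names start with 8 and with 9. Injured libraries of prefix 8 (1.69 to 2.46 TPM) all lie below the 2 sham libraries, and those of prefix 9 lie mostly below.

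Among receptors, Cntfr, which holds CNTF to the cell surface, was the most abundant. Its level was 92.4, 97.2, 172, 224 and 228 TPM in ipsilateral sham libraries, and 57.2 to 204 TPM with a median of 149 in the injured ones. In contralateral libraries it was 80.2, 83.0, 112, 151 and 180 TPM in sham and 65.7 to 239 TPM in injured libraries. No library of any group was under 57.2 TPM, also where Cntf was near 0. Injured minus sham was -0.23 (SE 0.32, or -0.15 without mouse 9_14) on the ipsilateral and 0.06 (SE 0.26, exact permutation p = 0.824) on the contralateral side. PTE+ libraries were higher than PTE- libraries on average in both hemispheres, by 0.38 (SE 0.35, exact permutation p = 0.300) and 0.31 (SE 0.29, exact permutation p = 0.303), within the spread of the libraries.

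Lifr and Il6st encode the signalling chains that CNTF and LIF share. Lifr was 5.94, 6.58, 8.35, 8.44 and 13.2 TPM in ipsilateral sham and 4.97 to 21.7 TPM in injured libraries, where the highest value was that of mouse 9_14. Its differences in the 3 tested comparisons lay between -0.24 and 0.12, with exact permutation p from 0.208 to 0.856. Leaving out PTE+ mouse 9_18, which had the lowest contralateral Lifr at 4.29 TPM, gave 0.40 for PTE+ minus PTE- on that side (exact p = 0.0318). Ipsilaterally PTE+ minus PTE- turned from -0.06 to 0.08 without PTE- mouse 9_14.

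Il6st differed by the prefix of the mouse name. In ipsilateral injured mice it was 16.7 to 24.1 TPM for prefix 8 and 26.6 to 48.1 TPM for prefix 9, with no overlap. In contralateral sham mice it was 12.47 and 18.7 TPM for prefix 8 and 34.97, 37.4 and 42.1 TPM for prefix 9. Injured minus sham was 0.29 (SE 0.27) on the ipsilateral side and -0.26 (SE 0.30, exact permutation p = 0.383) on the contralateral side. PTE+ minus PTE- on the ipsilateral side was 0.29 (SE 0.28, exact permutation p = 0.311). The 4 PTE+ libraries measured 17.1, 38.6, 41.2 and 48.1 TPM, the lowest from the 1 mouse of prefix 8 (8_10), and without it the difference was 0.60 (exact p = 0.0280). The PTE+ libraries left are then all of prefix 9, while the PTE- group holds both prefixes, so this value mixes outcome and prefix. Ipsilateral PTE- libraries of prefix 9 measured 26.6 to 41.4 TPM. Contralateral PTE+ mouse 9_17, with 50.3 TPM, stood above the other 3 (15.3, 20.6 and 21.2 TPM), and without it the sign of the difference turned from 0.19 to -0.15.

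Il6ra and Osmr, which serve interleukin-6 and oncostatin M, were at low levels. Il6ra was 0.10 to 1.46 TPM in ipsilateral and 0.32 to 2.58 TPM in contralateral libraries. Osmr was 0.60, 1.81, 2.07, 3.55 and 5.52 TPM in ipsilateral sham and 0 to 6.51 TPM in injured libraries, of which 13 of 14 were above the sham median. The library at 0 was that of mouse 9_14. In the tested comparisons between groups neither gene had an exact permutation p under 0.228. Of their ligands, Il6 was between 0 and 0.52 TPM and Osm between 0 and 0.96 TPM over all libraries.

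Jak2, a kinase bound to gp130, ranged from 5.61 to 13.8 TPM on the ipsilateral side, and its mean was 10.01 TPM after injury and 10.1 TPM in sham. Contralateral sham libraries measured 4.92, 4.98, 12.4, 17.2 and 20.9 TPM, the 2 low ones from mice of prefix 8 and the 3 high ones from mice of prefix 9. The 13 injured libraries measured 7.49 to 15.4 TPM, above the 2 low sham libraries and below the highest 2. Injured minus sham was -0.11 there (SE 0.27, exact permutation p = 0.703). PTE+ minus PTE- was 0.23 on the ipsilateral (SE 0.20, exact permutation p = 0.260) and 0.03 on the contralateral side (SE 0.19, exact permutation p = 0.855).

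Stat3, the transcription factor of the pathway, was abundant. It measured 46.5, 56.3, 60.8, 74.8 and 92.3 TPM in ipsilateral sham libraries. In the 10 PTE- libraries it was 51.2 to 140 TPM with a median of 85.6, and in the 4 PTE+ libraries 55.7, 88.3, 90.7 and 91.5 TPM. The ranges overlapped, and 12 of 14 injured libraries were above the sham median. Injured minus sham was 0.36 (SE 0.21), and 0.33 with the prefix as a covariate. The prefix separated injured mice without overlap, at 51.2 to 72.7 TPM for prefix 8 and 85.4 to 140 TPM for prefix 9. Sham mice of prefix 8 measured 46.5 and 56.3 TPM, and those of prefix 9 measured 60.8, 74.8 and 92.3 TPM.

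Contralateral Stat3 was 54.5, 76.1, 77.2, 78.1 and 81.1 TPM in sham and 48.3 to 97.6 TPM in injured libraries, with a difference of -0.12 (SE 0.16, exact permutation p = 0.471). PTE+ and PTE- mice differed by -0.06 in both hemispheres (ipsilateral SE 0.25, exact permutation p = 0.797, and contralateral SE 0.21, exact permutation p = 0.750). The sign of both turned without 1 library, to 0.11 without ipsilateral 8_10, to 0.02 without ipsilateral 9_14 and to 0.07 without contralateral 8_10. Without 8_10 the ipsilateral PTE+ libraries are all of prefix 9, so the value of 0.11 mixes outcome and prefix.

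Socs3, the feedback inhibitor and STAT3 target, varied widely within each group. Ipsilateral sham libraries measured 2.23, 4.41, 9.73, 10.96 and 12.9 TPM, the PTE- libraries 0 to 27.1 TPM with a median of 9.39, and the PTE+ libraries 2.93, 3.03, 5.96 and 9.83 TPM. The contralateral sham libraries measured 1.74, 8.05, 10.6, 12.7 and 13.7 TPM, the PTE- libraries 2.95 to 35.1 TPM with a median of 5.57, and the PTE+ libraries 2.86, 3.6, 6.73 and 7.1 TPM. PTE- mouse 8_13 was high in both hemispheres (27.1 and 26.0 TPM). PTE+ minus PTE- was -0.49 on the ipsilateral (SE 0.71, exact permutation p = 0.510) and -0.47 on the contralateral side (SE 0.63, exact permutation p = 0.526). Injured minus sham was -0.08 (SE 0.58) and -0.31 (SE 0.54, exact permutation p = 0.573). Without mouse 9_14, where Socs3 was listed at 0, ipsilateral PTE+ minus PTE- was -0.82 (exact permutation p = 0.112) and ipsilateral injured minus sham turned to 0.14.

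**Figure D5:**
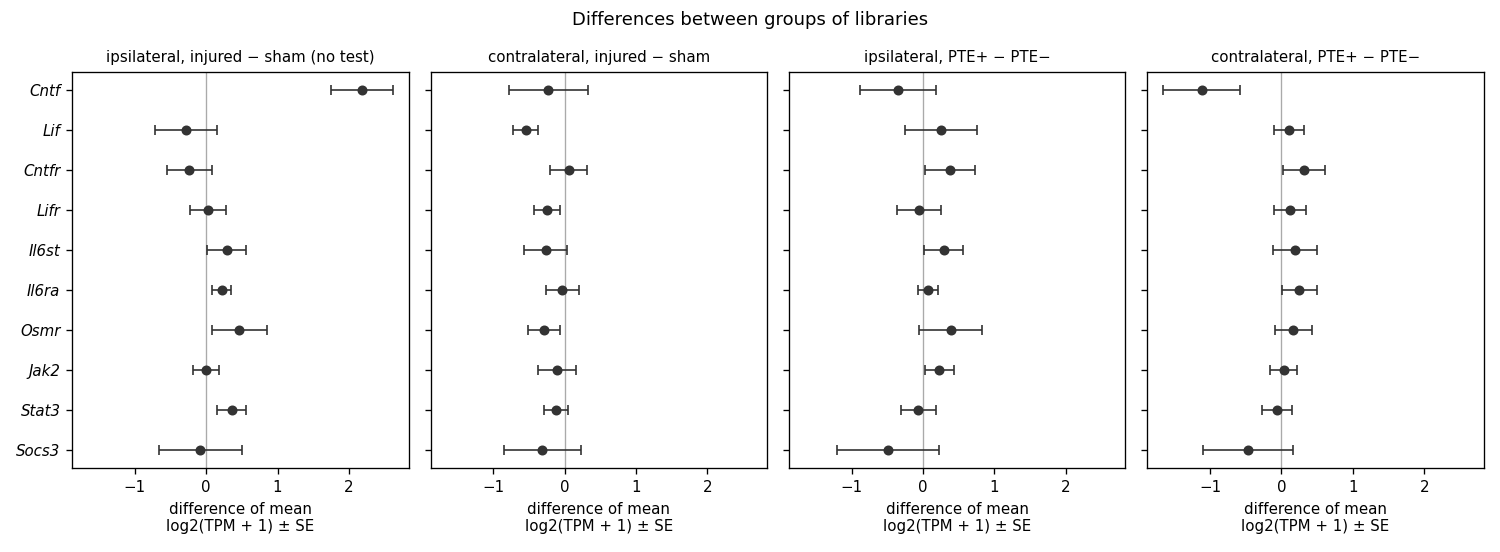
Differences of mean log2(TPM + 1) with their standard errors for the 10 genes in 4 comparisons of groups of libraries; the first comparison is the one that selected Cntf and carries no test. Cntf is at 2.19 in the first and -1.12 in the last, Lif at -0.55 in the second, and every other gene lies within 0.5 of 0.

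The fit across all genes placed these values in the transcriptome. A gene was called at an unadjusted limma p under 0.05 and a fold of at least 1.2. Of the 10 genes 6 passed the filter in contralateral injured against sham libraries and none was called, where 4.05% of all genes tested were. Those calls were 57 higher and 371 lower, but 200 higher and 155 lower with quantile normalization. In contralateral PTE+ against PTE- 6 passed and none was called (2.79% of all genes, 203 higher and 88 lower, or 136 and 242 with quantile normalization). In ipsilateral PTE+ against PTE- 7 passed and none was called (0.573% of all genes, 34 higher and 26 lower, or 14 and 36 with median centring), and in ipsilateral against contralateral sham 7 passed and none was called (1.19% of all genes). With the mouse as a block 1 was called in sham mice, Cntfr, higher on the ipsilateral side by 0.39 (limma p = 0.0302, adjusted p = 0.673), as were 6.91% of all genes. With limma no gene that passed the filter had an adjusted p under 0.05 in these 4 comparisons. With no filter 1 gene of the transcriptome did, in ipsilateral PTE+ against PTE- (limma adjusted p = 0.0198). At an unadjusted p under 0.05 the largest of them, contralateral injured against sham, had 472 genes.

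In the contrast that selected Cntf, ipsilateral injured against sham, 8 of the 10 genes passed the filter and 1, Cntf, was called (1.62% of all genes). Cntf passed through its injured libraries alone, so nothing is read from the count. Across the hemispheres of injured mice 7 passed. In the fit without the mouse as a block 3 were called higher on the ipsilateral side, Cntf, Il6st and Stat3 (2.54% of all genes). Here too Cntf passed through its ipsilateral libraries alone (mean 12.6 TPM, against 2.37 contralaterally), so nothing is read from the count. Il6st was higher on the ipsilateral side in 9 of 12 injured mice by a mean of 0.36 and in 2 of 5 sham mice. Stat3 was higher in 8 of 12 injured mice by a mean of 0.23, and Osmr in 10 of 12 by a mean of 0.52. With the mouse as a block Stat3 was no longer called. In sham mice Il6ra was lower on the ipsilateral side in 5 of 5, by 0.34 on average (exact sign-flip p = 0.0625, the smallest possible). No gene had an exact permutation p under 0.314 for the difference of these gaps between PTE+ and PTE- mice.

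Among other ligands of the family, Clcf1, which encodes a further ligand of CNTFR, stayed at or under 2.45 TPM in every library. Ctf1, cardiotrophin 1, another ligand of gp130 with LIFR, had a median of 17.4 TPM in ipsilateral and 13.7 TPM in contralateral injured libraries. In the fit without the mouse as a block Ctf1 was called higher on the ipsilateral side of injured mice, by 0.32. With the mouse as a block it was no longer called. Its highest ipsilateral injured value was 33.4 TPM, and 20.7 TPM without mouse 9_14.

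Other receptors and kinases gave no call in any of the 6 comparisons, with 1 of 3 receptors and 7 of 9 kinases and STATs tested in each. Il11ra1, the receptor of interleukin 11, had a median of 126 TPM in ipsilateral sham and 135 TPM in injured libraries. Jak1, the main partner kinase of gp130, had medians of 53.0 and 63.0 TPM. Of the 17 other inhibitors and adaptors, 11 or 12 were tested, and 1 was called in 1 comparison, where 2.79% of all genes were. Socs2, an inhibitor best known from growth hormone signalling, was higher in contralateral PTE+ libraries (7.5, 9.64, 10.8 and 20.2 TPM) than in PTE- libraries (4.2 to 14.3 TPM, median 6.38), by 0.67 (SE 0.30, limma p = 0.0413, adjusted p = 0.999). Of the 4 PTE+ libraries all were above the PTE- median and the ranges overlapped. Without PTE+ mouse 9_17 the difference was 0.41 (p = 0.205), and without 8_17 it was 0.69 (p = 0.0656). The call was also lost with no filter (limma p = 0.0536), quantile normalization (limma p = 0.0560) and array weights (limma p = 0.0608). It held with a pseudocount of 0.1, median centring, the prefix as a covariate and a fit of all 3 groups. In the same comparison the endothelial markers Tek and Pecam1 were called higher, by 0.80 and 0.78, and the neuron marker Stmn2 by 0.64. Of 4 meningeal and fibroblast markers tested there, Slc47a1 was called higher by 1.49, while the median of the 4 was -0.08. Their part in the value of Socs2 was not tested.

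A list of 20 genes known as STAT3 targets was set beside these. Of these 17 were tested in ipsilateral injured against sham libraries, with 5 called higher and 1 lower, beside 1.62% of all genes. Their median difference was 0.18, against -0.01 over all genes tested. Since the contrast is that of Cntf, this is a description only. Gfap, the intermediate filament that marks reactive astrocytes, measured 188, 235, 245, 324 and 373 TPM in sham libraries, and 422, 492.9, 887 and 970 TPM in PTE+ libraries. In PTE- libraries it was 179 to 1065 TPM with a median of 603, and every injured library except 9_14, at 179 TPM, was above all sham libraries. Vim, a second intermediate filament, was 42.7 to 94.0 TPM in sham and 86.0 to 225 TPM in injured libraries, and 13 of 14 were above all sham libraries. Serpina3n, a protease inhibitor of reactive astrocytes, had medians of 71.3 and 133 TPM. Cd44, a hyaluronan receptor, had medians of 3.82 and 9.20 TPM, and Myc, a growth regulator, of 6.2 and 11.02 TPM. Pim3, a kinase, was lower, with medians of 76.9 in sham and 50.9 TPM after injury.

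Beside these ipsilateral values, markers of other cells also differed. The 8 oligodendrocyte markers summed to 523 to 4473 TPM in ipsilateral sham libraries, with a median of 3080.0, and to 774 to 2328 TPM, with a median of 1362, in injured ones, and Mag and Mog were called lower. The 4 ependymal markers had medians of 181 and 277 TPM, with Foxj1 and Tmem212 called higher, and the 6 Schwann cell markers of 27.2 and 18.4 TPM. No marker of any of these lists was at 0 in all libraries of a group. The part of these cells in the values of Cntf and of the STAT3 targets was not tested. Aqp4, a water channel, was the only one of 10 astrocyte markers called, higher by 0.39.

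In contralateral libraries 18 STAT3 targets were tested against sham and 1 was called, beside 4.05% of all genes. Lcn2, which encodes the iron-sequestering protein lipocalin 2, was lower after injury by -1.67 (SE 0.72, limma p = 0.0300, adjusted p = 0.978). Its sham libraries measured 0, 0.06, 0.81, 21.7 and 78.6 TPM and the injured ones 0 to 1.69 TPM, so 2 sham libraries carried the difference. Without sham mouse 8_16 it was -0.68 (p = 0.242), and without 9_10 it was -1.13 (p = 0.142). Gfap there had medians of 389 TPM in sham and 288 TPM in injured libraries, and Vim of 111 and 84.2 TPM, and neither was called. In contralateral PTE+ against PTE- 15 were tested and none was called, beside 2.79% of all genes.

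In ipsilateral PTE+ against PTE- libraries 18 targets were tested and 1 was called, beside 0.573% of all genes. Junb, an immediate early transcription factor, was lower in PTE+ (23.9, 43.9, 63.3 and 72.1 TPM) than in PTE- libraries (42.3 to 279 TPM, median 98.2), by -1.11 (SE 0.44, limma p = 0.0230, adjusted p = 0.977). All 4 PTE+ libraries were below the PTE- median. The call was lost without PTE+ mouse 9_18 (-0.79, p = 0.111) or 8_10 (-1.08, p = 0.0510). Gfap, Vim and Serpina3n were not among the genes called between PTE+ and PTE- in either hemisphere.

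Between the hemispheres of injured mice 17 targets were tested and 6 were higher on the ipsilateral side, Gfap, Vim, Serpina3n, Cd44, Lcn2 and A2m, and none was lower, where 2.54% of all genes were called. In the same fit 4 of 7 oligodendrocyte markers (Mal, Mobp, Mbp and Mog), 3 of 5 endothelial markers (Pecam1, Flt1 and Ly6c1) and 2 of 5 mural markers (Rgs5 and Acta2) were called lower on the ipsilateral side, and Slc47a1 higher. The median difference was -0.90 over the oligodendrocyte and -0.48 over the endothelial markers. It was 0.15 over the 5 mural markers and 0.03 over the 5 meningeal and fibroblast markers tested, the list that holds Slc47a1. The part of these cells in the values of the targets was not tested. Gfap, Serpina3n and Cd44 were higher on that side in 12 of 12 injured mice, by means of 1.21, 1.08 and 0.73, and Vim in 10 of 12 by a mean of 0.51. In sham mice the same genes were higher on the ipsilateral side in 2, 2, 3 and 0 of 5. In sham mice 18 targets were tested between hemispheres and none was called, but with the mouse as a block 4 were called lower on the ipsilateral side, Vim (-0.53, limma p = 0.000428, adjusted p = 0.673, lower in 5 of 5 mice), Timp1, Nampt and Icam1. That fit called 6.91% of all genes, 691 of 732 of them lower. In injured mice the block gave 8 targets, the 6 above with Timp1 and Icam1, all higher on the ipsilateral side, where 4.51% of all genes were called.

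The genes whose ipsilateral level ran most like that of Cntf over the 14 injured libraries were Ccdc121 (Spearman correlation 0.91), Phtf1 (0.89), Prps2 (0.86), Anxa5 (0.86) and Sec24d (0.86), ranked among 10153 genes. Prps2 encodes an enzyme of nucleotide synthesis, Anxa5 a phospholipid-binding annexin and Sec24d a coat protein of secretory vesicles. Pearson's r of the 5 lay between 0.66 and 0.78 on log2(TPM + 1). Over the 13 contralateral injured libraries the Spearman correlation was 0.75 for Anxa5 and between 0.16 and 0.38 for the other 4. Without mouse 9_14 the first places went to Pawr (0.95), Slc38a1 (0.92) and Vim (0.92), and 1 of the 5, Ccdc121, stayed among the first 5. The libraries share the bead isolation, the hemisphere and the unknown depth, so these are descriptions.

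The genes of the pathway were less like Cntf over the same libraries. The Spearman correlation was 0.48 for Stat3, 0.36 for Socs3, 0.36 for Il6st, 0.31 for Jak2, 0.20 for Lifr and -0.14 for Cntfr. Of the targets, Vim stood at 0.84, Gfap at 0.54 and Serpina3n at 0.50. Without mouse 9_14 Gfap was at 0.87 and Serpina3n at 0.52. Of the pathway, Socs3 was then at 0.63, Jak2 at 0.57, Il6st at 0.42, Stat3 at 0.36, Cntfr at 0.06 and Lifr at 0.05. Over contralateral injured libraries the correlation with Cntf was 0.41 for Vim, 0.47 for Gfap and -0.66 for Cntfr.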

How the data were processed

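Libraries were made from astrocytes enriched with ACSA-2 beads. The authors trimmed reads with Trim Galore (0.6.4), quantified them on mm10 with RSEM (1.2.28) and Bowtie2 (2.4.1), and deposited TPM for each Ensembl gene, in 1 table per hemisphere. Their own comparisons used DESeq2 (1.36.0) on counts, which are not analysed here. TPM keep no depth, so no count test was possible here and counting error is unknown. The 10 members and the gene lists were chosen with earlier results of these data known.

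Symbols and positions came from GENCODE vM21 (GRCm38), with a symbol for 21856 of 21975 identifiers. The annotation release used by RSEM is not given in the sources used here. A gene entered a fit where either group averaged more than 5 TPM. It was fitted with limma 3.58.1 (R 4.3.3) on log2(TPM + 1), with a trend of variance on level, and genes were called at an unadjusted p under 0.05 and a fold of 1.2, the study's thresholds. Such differences understate the change of low genes. Single genes were compared by exact two-sided permutation of libraries, or of signs over mice between hemispheres, with smallest possible p of 0.000117, 0.0014, 0.000999 and 0.0625. Standard errors of the members are those of a difference of means. Within a hemisphere each library is a separate mouse. The main limma fits between hemispheres took no account of the mouse, which only the fits with the mouse as a block did. Both hemispheres of a mouse carry its name in the labels, which pairs them. Their deviations from the group means correlated at a median of 0.41 over 17 mice (0.0418 to 0.686, above 0.1 in 16), against -0.08 for 114 pairs of different mice.

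Named genes were the 10 members, the called genes of the pathway and target lists, Gfap, Vim, Il6, Osm, Clcf1 and Jak1, the 5 genes most like Cntf, and genes near Cntf. Il11ra1, Tek, Pecam1, Stmn2 and further markers, and Timp1, Nampt and Icam1, were named after their values were seen. Some genes of these lists are not reported here. Alternatives were a pseudocount of 0.1, no filter, quantile normalization, median centring, array weights, the name prefix as a covariate, a fit of all 3 groups, the mouse as a block, the sum of Cntf and Zfp91, and leaving out single libraries. The fits were tested on simulated data. Python 3.11.15, pandas 2.3.3, scipy 1.17.1 and matplotlib 3.10.9 were used.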

Additional observations from a re-analysis of the deposited data

Results flagged for a closer look

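Of 60 groups of libraries examined for the 10 genes, 6 held a library far from the rest of its group by Dixon's test, where chance alone gives about 1 in 20. Of these 3 came from contralateral PTE+ mouse 9_17, with Il6st at 50.3 TPM (next highest 21.2), Osmr at 5.84 TPM (next 2.23) and Jak2 at 15.4 TPM (next 8.84). Lifr was at 21.7 TPM in ipsilateral PTE- mouse 9_14 (next 11.5), the library with the fewest genes above 0 TPM. Stat3 was low in ipsilateral PTE+ mouse 8_10, at 55.7 TPM (next 88.3), and in contralateral sham mouse 8_16, at 54.5 TPM (next 76.1). Mouse 8_10 was the only one of prefix 8 in its group. Its Stat3 lay within the range of ipsilateral injured mice of that prefix (51.2 to 72.7 TPM).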

How the results depend on the processing

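Over the 40 tested differences of the 10 genes, 393 alternative values were computed: 343 kept their direction and side of the threshold, 43 changed sign (24 of them when 1 library was left out), 7 passed the threshold where the reported value did not, and 0 lost it. Between sham hemispheres the sign-flip p cannot be under 0.0625, so those values could pass only by the limma p of array weights. Only contralateral Lif in injured against sham mice was under the threshold at first, so it alone could lose it. The cause of the changes was not tested. The differences that passed were Cntf in contralateral PTE+ against PTE- mice (pseudocount of 0.1, median centring, without 9_18), Lifr there without 9_18, Il6st in ipsilateral PTE+ against PTE- without 8_10, and with array weights Cntfr in contralateral PTE+ against PTE- (0.53) and Stat3 between sham hemispheres (-0.35). Without 8_10 all ipsilateral PTE+ libraries are of prefix 9, and Il6st differed by prefix.

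Genes called without the TPM filter numbered 682 in contralateral injured against sham, 458 in contralateral PTE+ against PTE-, 171 in ipsilateral PTE+ against PTE-, 379 in ipsilateral injured against sham, 319 between sham and 426 between injured hemispheres, against 428, 291, 60, 169, 126 and 263. With array weights the last 5 numbered 828, 441, 843, 910 and 549. Without PTE- mouse 9_14 the count was 197 in ipsilateral PTE+ against PTE- and 399 in ipsilateral injured against sham. With the mouse as a replicate block it was 732 between sham and 467 between injured hemispheres. Leaving out 1 library at a time gave, in that order of the first 5 comparisons, 231 (without 9_11) to 883 (without 9_9), 201 (9_17) to 489 (9_18), 23 (9_17) to 121 (8_10), 138 (8_16) to 415 (9_11), and 37 (8_15) to 289 (9_11).

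Of the 10 genes, 1 was called without the filter in contralateral injured against sham (Lif, beside 3.40% of all genes) and 1 in contralateral PTE+ against PTE- (Cntf, beside 2.32%). In the latter 1 (Cntfr) was called with array weights (7.94% of all genes), and 0 to 1 when libraries were left out (1.96 to 4.66% of all genes). In ipsilateral PTE+ against PTE- leaving out libraries gave 0 to 1 (0.22 to 1.89% of all genes). In ipsilateral injured against sham 3 were called with array weights (8.08% of all genes) and 2 with the name prefix as a covariate (1.90% of all genes). When libraries were left out 1 to 2 were called there (1.32 to 4% of all genes). Between sham hemispheres 1 was called with array weights (Stat3, beside 8.58% of all genes) and 1 under the block (Cntfr, beside 6.91%). Under the block Cntf and Il6st stayed called between injured hemispheres (4.51% of all genes) and Stat3 did not. In this contrast and in ipsilateral injured against sham Cntf passed the filter through its ipsilateral injured libraries alone. Nothing is read from the counts of either.

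Sign changes, all of differences that did not pass the threshold, were as follows. In contralateral injured against sham Il6ra was 0.085 with quantile normalization and 0.070 with median centring, and Jak2 0.017 with quantile normalization. In contralateral PTE+ against PTE- Lifr was -0.015, Il6st -0.23 and Jak2 -0.18 with array weights, and Jak2 -0.050 with quantile normalization and -0.029 with median centring. In ipsilateral PTE+ against PTE- Cntf was 0.069 and Stat3 0.050 with array weights, Lifr 0.082 and Stat3 0.018 without 9_14, and Il6ra -0.15 with quantile normalization and -0.011 with median centring. Between sham hemispheres Cntf was 0.020 with a pseudocount of 0.1, Lif 0.12 and Jak2 0.050 with quantile normalization, and Lif 0.10 and Jak2 0.043 with median centring.

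When 1 library was left out, contralateral injured minus sham ranged from -0.62 to 0.19 for Cntf, -0.070 to 0.22 for Cntfr, -0.15 to 0.17 for Il6ra and -0.34 to 0.13 for Jak2. Contralateral PTE+ minus PTE- ranged from -0.067 to 0.40 for Lifr, -0.15 to 0.40 for Il6st, -0.0061 to 0.41 for Il6ra, -0.12 to 0.28 for Osmr, -0.17 to 0.13 for Jak2 and -0.26 to 0.072 for Stat3. Ipsilateral PTE+ minus PTE- ranged from -0.58 to 0.12 for Cntf, -0.15 to 0.096 for Lifr and -0.13 to 0.11 for Stat3. Between sham hemispheres the range was -0.64 to 0.097 for Cntf, -0.18 to 0.27 for Lif, -0.27 to 0.0052 for Il6st and -0.31 to 0.099 for Jak2. The median over all genes lay over 0.1 from 0 in ipsilateral PTE+ against PTE- mice alone, at 0.12. The tables keep no read counts, so what depth limits is unknown.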
